A study of Danio rerio with 5 samples.

Results

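Chromosome 4 of the zebrafish held 300 of the 9559 circular RNAs (circRNAs) listed in 5 libraries of whole embryos. The members were all circRNAs whose listed position lay on chromosome 4 in any library. They were divided by their start into 201 that began before 27 Mb and 99 that began at 27 Mb or later, the long part. The 24 other numbered chromosomes, with 9102 circRNAs, served for comparison. Wild-type embryos of the strain labelled Tubingenz gave 1 library for the blastula at 4.5 hpf (hours after fertilization) and 1 for the gastrula at 8 hpf. A segmentation library was made at 24 hpf, and the stages that the labels call throat and incubation were taken at 48 and 72 hpf. Total RNA had been depleted of ribosomal RNA and made into strand-specific libraries. The labels give no treatment, and each stage had 1 library without replicates.

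A circRNA forms when the splicing machinery joins a downstream splice site to an upstream one, and it is counted by reads across that back-splice junction. Chromosome 4 is unusual among zebrafish chromosomes. Its long arm is known as heterochromatic, late replicating and rich in repeats, with many near-identical copies of immune receptor and zinc finger genes and arrays of small structural RNA genes. In some natural strains the chromosome also carries a sex-linked region. No gene is assigned to a circRNA in these tables, so members are given by position, as deposited. Neither the genome build nor the placing of reads that match several copies of a repeat is stated in these sources, so the exact position of a junction in repeated sequence is uncertain.

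The libraries held 20410, 24580, 9563, 15850 and 19036 junction reads from 4.5 to 72 hpf, and the 24 hpf library was the shallowest by this measure. The depth behind the authors' scaling was 66.0, 76.5, 64.7, 65.5 and 54.5 megaunits, a megaunit being 1e+06 units of depth. The sources do not say if such a unit counts reads or pairs. The lowest count listed was 2 reads and the median was 3 in every library. Intervals are 95% intervals that cover counting error at most and do not cover variation between embryos or libraries of a stage.

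Chromosome 4 had the fewest circRNAs per Mb of the 25 numbered chromosomes, and the shortfall lay in the long part. Taking the highest listed end as the extent of a chromosome, chromosome 4 reached 76.6 Mb and listed 3.92 circRNAs per Mb over the 5 libraries. The other chromosomes ranged from 5.39 to 9.29 per Mb, with a median of 7.32. The part before 27 Mb listed 7.44 per Mb, within the range of the others, and the long part listed 1.996 per Mb. When the other chromosomes were divided at the same 27 Mb, their later part had between 0.536 and 1.498 times the density of their earlier part, with a median of 1.14. On chromosome 4 this ratio was 0.268 over the 5 libraries pooled, below all 24. In the 24 hpf library alone it was 0.340, and the lowest other chromosome had 0.334. In each of the other libraries it was below the lowest other chromosome.

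The contrast between the parts was present in each library. Before 27 Mb, chromosome 4 listed 60, 53, 32, 52 and 48 circRNAs from 4.5 to 72 hpf. From 27 Mb on it listed 23, 33, 20, 18 and 24. Per Mb, the long part had between 0.188 times (48 hpf) and 0.340 times (24 hpf) the density of the earlier part, so the parts did not overlap in any library. The geometric mean ratio was 0.262, lower in 5 of 5 libraries, and an exact two-sided sign-flip permutation test over the libraries gave p = 0.0625. That is the smallest p that 5 libraries allow, so this design cannot pass 0.05, and adjusted over the 8 comparisons of this kind the p was 0.167.

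**Figure D1:**
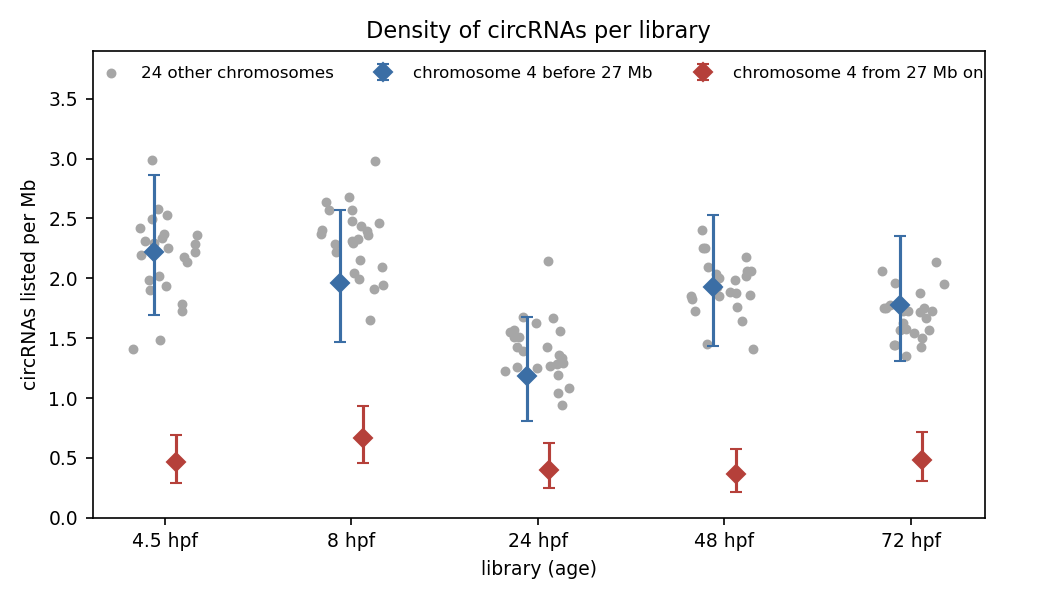
Number of circRNAs listed per Mb in each library, by age. Grey points are the 24 other numbered chromosomes, and diamonds are the parts of chromosome 4 with exact Poisson 95% intervals. The long part (red) lies between 0.363 and 0.665 per Mb, below every other chromosome in all 5 libraries, and the part before 27 Mb (blue) lies among them.

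Set against the other chromosomes, the long part lay below their range in all 5 libraries and the part before 27 Mb lay within it. Its density was 0.464, 0.665, 0.403, 0.363 and 0.484 per Mb from 4.5 to 72 hpf. The sparsest other chromosome of the same library had 1.41, 1.65, 0.942, 1.41 and 1.35 per Mb. The geometric mean ratio to the median of the other chromosomes was 0.247, lower in 5 of 5 libraries (exact sign-flip permutation test, p = 0.0625, adjusted 0.167). The part before 27 Mb was close to that median, at 0.838 to 1.03 times. Its mean ratio was 0.942, lower in 3 of 5 libraries (exact sign-flip permutation test, p = 0.375, adjusted 0.429). With at least 5 reads in the library this ratio was 0.680, and with the border at 30 Mb 0.873 (exact sign-flip permutation test, p = 0.0625 each). In reads per Mb and depth, only 4, 1, 2 and 4 of the 24 others lay below the part before 27 Mb from 4.5 to 48 hpf. At 72 hpf 23 lay below it, but 394 of its 564 reads there came from the circRNA from 379926 to 384171. Without that circRNA it had 0.116 reads per Mb and megaunit. The lowest other chromosome had 0.119, but the other chromosomes kept their circRNAs with most reads, so these values are not a like comparison.

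Within the long part the circRNAs were not spread evenly. All 27 windows of 1 Mb before the border held at least 1 circRNA start, whereas 30 of the 50 windows after it held none. The 24 other chromosomes together had 24 empty windows among 1274, with at most 5 on a chromosome. From 31 to 70 Mb, a range chosen after the values were seen, 29 of 39 windows were empty, and the other windows held 12 circRNAs with 54 reads over all libraries. The longest run without a start went from 47765225 to 57109129, which is 9.34 Mb. On the other chromosomes the longest such run was between 0.944 and 2.88 Mb.

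Of those 12 circRNAs, the one from 60868664 to 61197888 stood out. Listed from 48 hpf on, it had 9 and then 16 reads and spanned 329224 bp. The remaining circRNAs of the sparse middle had few reads, such as 2 reads at 8 hpf for 43117145 to 43119415 and 3 reads at 72 hpf for 43189587 to 43189760. Short spans of 113 bp were listed at 39544532 to 39544645 and at 47765225 to 47765338, with 2 reads each, the former at 48 hpf and the latter at 72 hpf.

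The last stretch of the chromosome was dense again. From 70 Mb to the highest listed end, 78 circRNAs started in 6.61 Mb, which is 11.8 per Mb, against 0.488 per Mb from 27 to 70 Mb. This border was also chosen after the values were seen, and it was not tested. Listed circRNAs of this end numbered 21, 26, 16, 14 and 19 from 4.5 to 72 hpf, so it was represented at every stage. Of the 78, 32 lay in 1 stretch of 5095 bp described below, so 11.8 per Mb does not describe the rest of this end. The windows from 70 to 76 Mb held 2, 12, 11, 2, 4 and 11 starts, where the other chromosomes had a median of 7.32 per Mb. The final window alone held 36 starts and 338 reads. No 1 Mb window of the other numbered chromosomes held as many, and the highest had 29. The opposite end of chromosome 4 was also full, with 22 starts and 521 reads in the first 1 Mb.

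**Figure D2:**
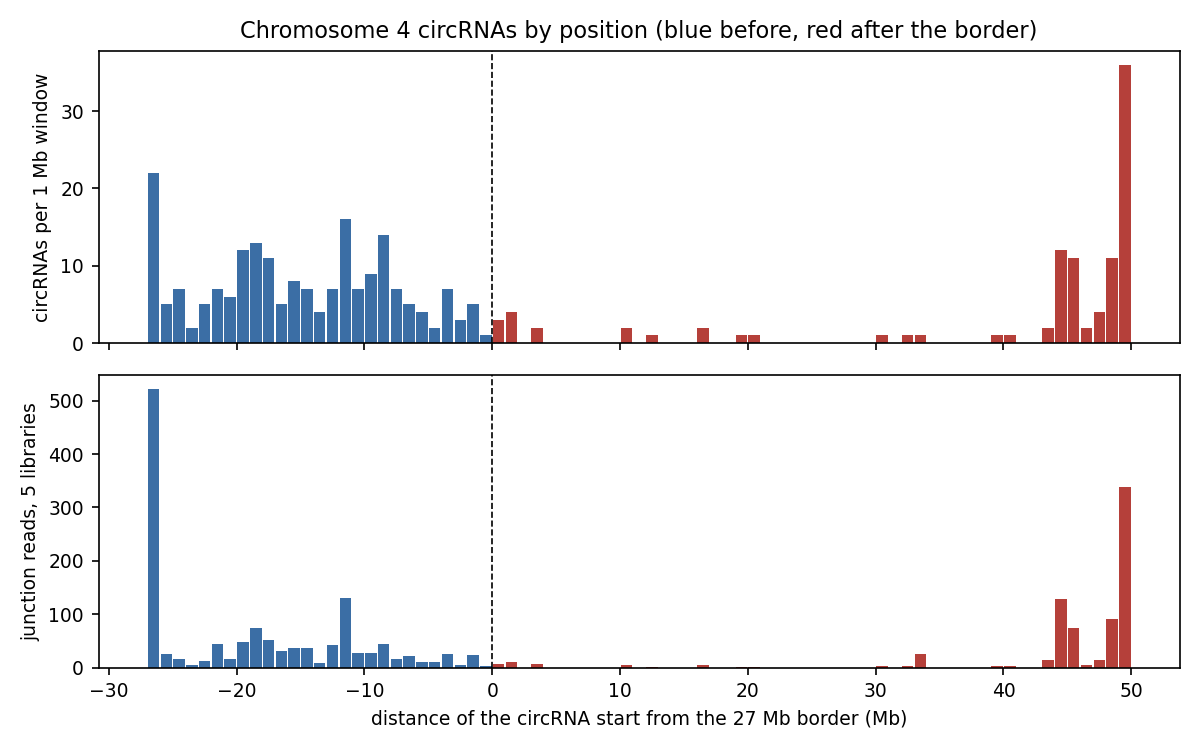
CircRNA starts (top) and junction reads summed over the 5 libraries (bottom) in 1 Mb windows of chromosome 4, by distance from the 27 Mb border. Blue bars lie before the border and red bars after it. The first window holds 22 starts, the sparse middle 12 starts in 39 windows, and the last window 36 starts.

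Most of the last window came from 1 short stretch. Between 76320387 and 76325481, which is 5095 bp, 32 circRNAs with 325 reads were listed. They made up 32.3% of the circRNAs and 43.5% of the reads of the long part. The densest stretch of this length on any other chromosome or scaffold held 9 circRNAs, on chromosome 1 from 57867011 and on scaffold KN150127.1 from 3558. These had 77 and 7985 reads, so the chromosome 4 stretch stood out in number of circRNAs and not in reads. The next were 7 each on chromosomes 13 and 24. The stretch, the chain of starts under 2 kb apart with the most circRNAs, was chosen for its density, so no test is given for it.

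The stretch consisted of a left group and a right group with different courses. The left group, from 76320387 to 76321112, held 7 circRNAs with 43 reads at 4.5 hpf and 8 at 8 hpf, and none was listed later. The right group, from 76321360 to 76325481, held 25 circRNAs with 12, 169, 17, 74 and 2 reads from 4.5 to 72 hpf. Per depth, the left group was 6.23-fold lower at 8 than at 4.5 hpf (2.89 to 15.3), and the right group was 12.2-fold higher (6.78 to 24.0). The right group was then 8.41-fold lower at 24 hpf (5.10 to 14.8), 4.30-fold higher at 48 hpf (2.51 to 7.77) and 30.8-fold lower at 72 hpf (8.22 to 259), the last resting on 2 reads. With 1 library a stage, none of these differences has a replicate check.

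Of the 32 circRNAs of the stretch, 29 were listed in 1 library only (90.6%, 75.0 to 98.0) and 3 in more. The interval holds the 80.6% of the other chromosomes. It treats the 32 as independent, although 20 of them shared a start or an end with another circRNA, so it may be too narrow. In the left group, 4 circRNAs ended at 76321069. Among them, 76320804 to 76321069 had 16 reads at 4.5 hpf and 4 at 8 hpf, and 76320878 to 76321069 had 15 reads at 4.5 hpf alone. In the right group, 76321644 to 76322090 had 90 reads at 8 hpf and was listed at no other stage. Its neighbour 76321667 to 76322123, shifted by 23 bp at the start and 33 bp at the end, had 29 reads, also at 8 hpf only.

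At 48 hpf the same short range was listed with other ends. The circRNA from 76321667 to 76322188 had 33 reads at 48 hpf alone, and that from 76321646 to 76322184 had 6 reads at 8 hpf and 23 at 48 hpf. The former shares its start with the 8 hpf circRNA that ends at 76322123. Spans in the stretch ranged from 51 to 3671 bp with a median of 450 bp, and 19 of 32 were under 500 bp. A further 6 of the right group spanned between 1900 and 2200 bp, such as 76321824 to 76323853 with 16 reads at 8 hpf. Whether the 32 entries are separate circRNAs, fewer circRNAs with junctions placed at nearby positions, or not circRNAs at all but reads of repeated or abundant structural RNA that resemble back-splice junctions was not tested. The 325 reads of the stretch are therefore counts of listed junctions only.

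**Figure D3:**
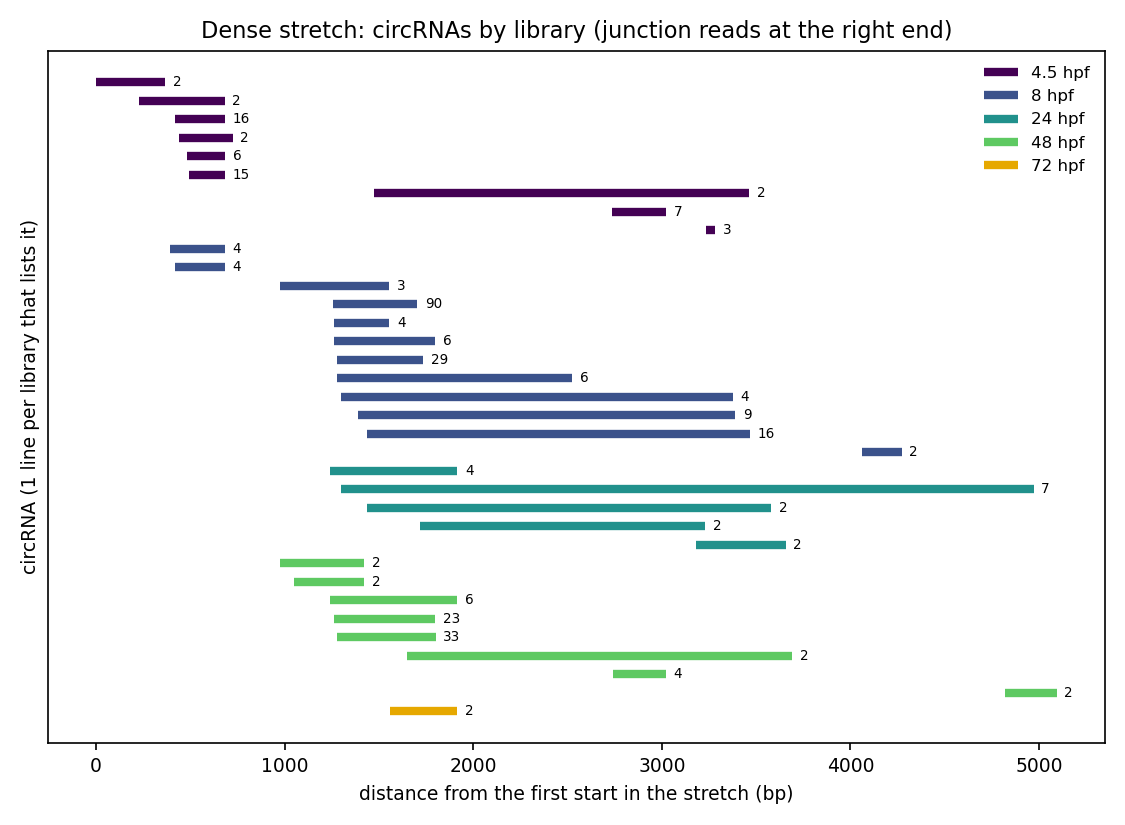
The circRNAs of the dense stretch, each drawn from start to end as bp from the first start, with 1 line for each library that lists it and its junction reads at the right end. Colours give the age of the library. The 4.5 hpf lines gather at the left end, the 8 and 48 hpf lines further right, and 72 hpf has 1 line with 2 reads.

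In junction reads, the balance between the parts changed from stage to stage. Before 27 Mb there were 260, 188, 104, 208 and 564 reads from 4.5 to 72 hpf. From 27 Mb on there were 160, 327, 60, 113 and 87. The long part thus held 63.5% of the chromosome 4 reads at 8 hpf (59.2 to 67.7) and 13.4% at 72 hpf (10.8 to 16.2). Its share at the other stages was intermediate, 38.1% in the blastula (33.4 to 42.9), 36.6% in the segmentation library (29.2 to 44.5) and 35.2% in the library labelled throat (29.98 to 40.7). Its share of the listed circRNAs moved less, from 25.7% at 48 hpf (16.0 to 37.6) to 38.5% at 24 hpf (25.3 to 53.0), with intervals that overlap.

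Many of the reads at 8 and 72 hpf came from few positions. The dense stretch held 34.4% of the chromosome 4 reads at 8 hpf (30.3 to 38.6) and 23.1% at 48 hpf (18.6 to 28.1), against 0.307% at 72 hpf (0.0372 to 1.11). Without the stretch the long part held 28.8, 44.4, 29.3, 15.8 and 13.1% of the reads from 4.5 to 72 hpf, still highest at 8 hpf. Of its 150 reads outside the stretch at 8 hpf, 78 belonged to the circRNA from 71390324 to 71395239, and without that one too the share at 8 hpf was 27.7% (22.3 to 33.6). At 72 hpf the circRNA from 379926 to 384171 alone had 394 of the 564 reads before 27 Mb. The shares of 13.4 and 13.1% at 72 hpf include it in the total. Without that circRNA 170 reads remained before 27 Mb, against 87 in the long part, 85 of them outside the stretch. At 48 hpf the part before 27 Mb had 208 reads and the long part outside the stretch 39. The low share of the long part at 72 hpf therefore rested largely on that circRNA. Per megaunit of depth, the 170 reads at 72 hpf were 3.119, against 3.17 at 48 hpf. The ratio of these values was 0.983 (0.798 to 1.21), while with that circRNA it was 3.26 (2.78 to 3.84).

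Per Mb and per depth, the long part had fewer junction reads than the earlier part in 5 of 5 libraries. The ratios were 0.335, 0.947, 0.314, 0.296 and 0.0840 from 4.5 to 72 hpf, nearly 1 at 8 hpf and lowest at 72 hpf. Their geometric mean was 0.301 (exact sign-flip permutation test, p = 0.0625, adjusted 0.167). Without the dense stretch the geometric mean was 0.178, and without the circRNA with most reads in each part it was 0.359. The ratio of 0.0840 at 72 hpf included the circRNA from 379926 to 384171. Without that circRNA the earlier part had 0.116 reads per Mb and megaunit, against 0.0322 in the long part. At 48 hpf these values were 0.118 and 0.0348. Reads per circRNA had no common direction, with means of 6.96, 9.91, 3, 6.28 and 3.63 in the long part and 4.33, 3.55, 3.25, 4 and 11.8 before 27 Mb. The mean ratio was 1.15, above 1 in 3 of 5 libraries (exact sign-flip permutation test, p = 0.75, adjusted 0.75), and without the gastrula library it was 0.920. Without the circRNA with most reads in each part it was 1.37 (exact sign-flip permutation test, p = 0.1875).

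**Figure D4:**
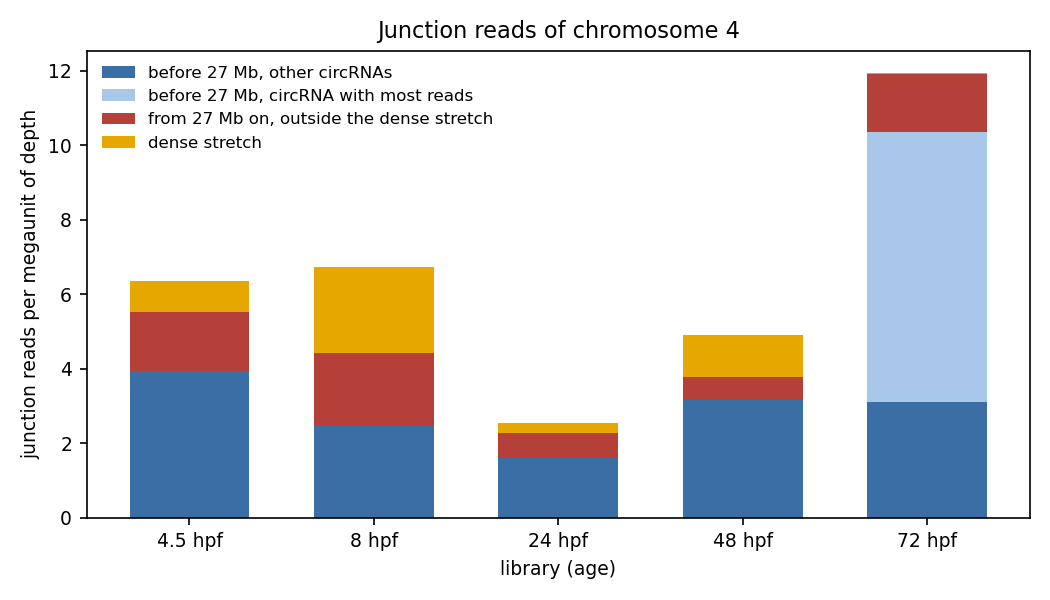
Junction reads of chromosome 4 circRNAs per megaunit of depth in each library, as stacked bars from 0. The dense stretch (yellow) is largest at 8 hpf with 2.31 per megaunit, and the circRNA with most reads (pale blue, 394 reads) is present at 72 hpf alone.

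Outside the dense stretch, the long part had 105, 150, 43, 39 and 85 reads from 4.5 to 72 hpf. Per depth, the ratio of 8 to 4.5 hpf was 1.23 (0.955 to 1.60) and that of 48 to 24 hpf was 0.896 (0.566 to 1.42), intervals that include 1. The value was 2.95-fold lower at 24 than at 8 hpf (2.09 to 4.25), but this rested on the circRNA from 71390324 to 71395239. Without that circRNA the step was 1.42-fold lower (0.958 to 2.12), close to the 1.40-fold of the 24 other chromosomes. The value at 8 hpf was then 1.69-fold lower than at 4.5 hpf (1.24 to 2.31). The circRNA left out was listed at 8 hpf only, so leaving it out could only lower the 8 hpf value. The circRNA from 75651737 to 75732402, with 35 reads at 4.5 hpf only, was kept. The 1.69-fold therefore does not settle the direction of this step. Between 48 and 72 hpf the long part outside the stretch was 2.62-fold higher (1.77 to 3.93), where the other chromosomes were 1.41-fold higher. The part before 27 Mb was 1.60-fold lower at 8 than at 4.5 hpf (1.32 to 1.94), where the other chromosomes were 1.498-fold lower. With its dense stretch, the long part was 1.76-fold higher at this step (1.46 to 2.15). Without both the stretch and the circRNA that starts at 71390324 it was lower, with the limit given above.

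Over all libraries, the long part had larger shares than the earlier part of spans over 100 kb and under 500 bp. The excess of short spans came mainly from the dense stretch. In the long part the median span was 4835, 1999, 4253, 686 and 12865.5 bp from 4.5 to 72 hpf, and before 27 Mb it was 11019.5, 14668, 11100.5, 6507 and 3646 bp. The long part was shorter in 4 of 5 libraries and longer at 72 hpf. At 8 hpf the intervals of the medians were apart, 651 to 3459 bp against 8575 to 21702 bp before 27 Mb. Without the dense stretch the 8 hpf median of the long part was 3459 bp (1443 to 22219), and the intervals overlapped. In the other libraries they overlapped with the stretch included, as at 48 hpf (374 to 25466 against 3523 to 10850 bp) and 72 hpf (3043 to 108344 against 2308 to 7450 bp). The geometric mean ratio was 0.386 (exact sign-flip permutation test, p = 0.25, adjusted 0.4). Without the dense stretch the ratio turned to 1.48 (exact sign-flip permutation test, p = 0.4375). The direction of the median therefore rested on that stretch.

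Against the other chromosomes, the median span before 27 Mb was longer in 4 of 5 libraries. It was 1.35, 2.11, 1.81 and 1.37 times theirs from 4.5 to 48 hpf and 0.692 times at 72 hpf. The geometric mean was 1.37 (exact sign-flip permutation test, p = 0.25, adjusted 0.4). At 8 and 24 hpf it was above the medians of all 24 other chromosomes, and at 72 hpf below all of them. Its interval held the pooled median of the others at 24 hpf (2746 to 17857, pooled 6130 bp) and 72 hpf (2308 to 7450, pooled 5270 bp). At 8 hpf it did not (8575 to 21702, pooled 6968 bp). For the long part the geometric mean was 0.529 (exact sign-flip permutation test, p = 0.3125, adjusted 0.417), and 2.03 without the dense stretch (exact sign-flip permutation test, p = 0.25).

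Very long spans made up a larger share of the long part than of the other chromosomes pooled. Over all libraries, 13 of its 99 circRNAs spanned over 100 kb (13.1%, 7.18 to 21.4), against 5 of 201 before 27 Mb (2.49%, 0.813 to 5.71) and 3.47% on the other chromosomes (3.11 to 3.87). Single chromosomes ranged from 1.30% to 12.4%, the highest being chromosome 22, whose share lies within the interval of the long part. By library the long part had 8.70% (1.07 to 28.0), 9.09% (1.92 to 24.3), 15% (3.21 to 37.9) and 16.7% (3.58 to 41.4) from 4.5 to 48 hpf. The other chromosomes had 4.31, 3.62, 3.89 and 3.20%, within these wide intervals at 4.5, 8 and 24 hpf and below the interval at 48 hpf. At 72 hpf all 8 chromosome 4 circRNAs over 100 kb lay in the long part, 8 of 24 (33.3%, 15.6 to 55.3), with 0 of 48 before 27 Mb (up to 7.40%), and the share on the other chromosomes was 3.60%. The longest, from 71725771 to 72224552, spanned 498781 bp and had 13 reads at 4.5 hpf only. Before 27 Mb the longest was 12523222 to 12718735, with 195513 bp and 3 reads at 8 hpf. These shares treat circRNAs as independent, although several of the long ones overlap, and no test over libraries was made.

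Short spans were also more frequent in the long part, but nearly all of the excess was the dense stretch. Spans under 500 bp made up 27.3% of the long part (18.8 to 37.1), 10.4% before 27 Mb (6.58 to 15.5) and 9.87% on the other chromosomes (9.26 to 10.5). Without the dense stretch the share was 11.9% (5.30 to 22.2). The shortest circRNA of the chromosome, 75739446 to 75739493, spanned 47 bp with 2 reads at 24 hpf. Before 27 Mb the shortest was 12513481 to 12513590, with 109 bp and 2 reads at 48 hpf.

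**Figure D5:**
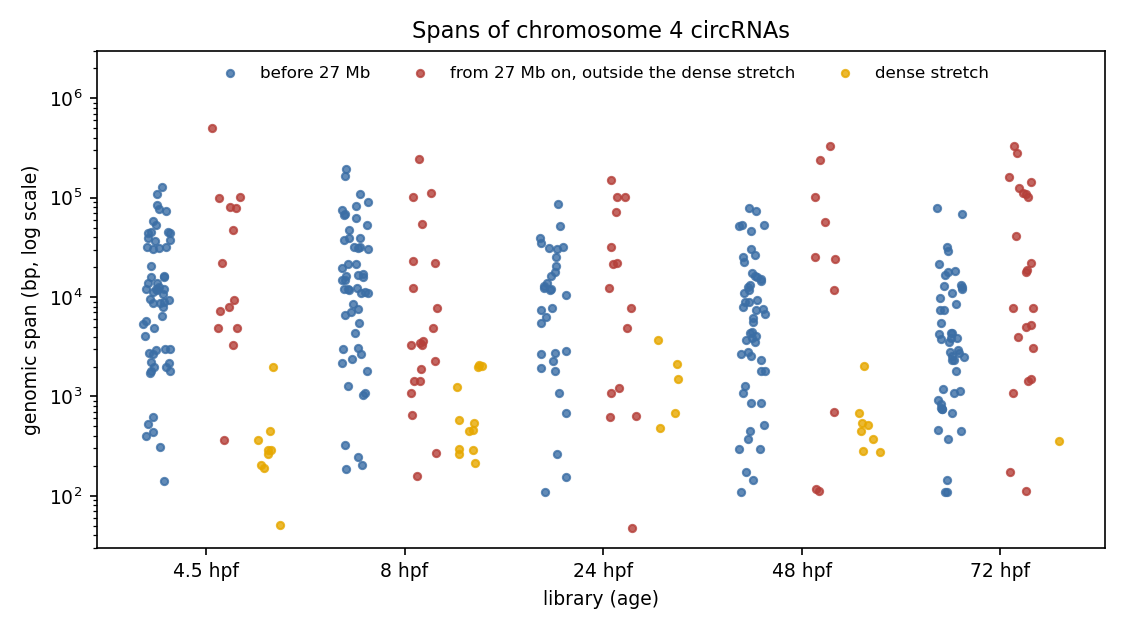
Genomic span of each listed chromosome 4 circRNA by library, on a log axis, with 1 point per circRNA. The dense stretch (yellow) lies between 51 and 3671 bp, and at 72 hpf the 8 points above 100 kb are all red, in the long part.

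Most chromosome 4 circRNAs were listed at 1 stage. Of the 300, 259 (86.3%, 81.9 to 90.0) were listed in 1 library, against 80.6% on the other chromosomes pooled (79.8 to 81.4). Listed in at least 2 libraries were 13.7% on chromosome 4 (9.99 to 18.1). Single other chromosomes ranged from 14.6% to 23.9%, all above it, with the lowest inside that interval. The share in at least 2 libraries was 14.4% before 27 Mb (9.88 to 20.1) and 12.1% in the long part (6.42 to 20.2), with intervals that overlap. On chromosome 4, 5 were listed in at least 4 libraries (1.67%, 0.543 to 3.85) and 2 in all 5 (0.667%, 0.0808 to 2.39), from both parts. The other chromosomes had 3.02% and 1.27%, within these intervals.

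Before 27 Mb, the circRNA listed in all 5 libraries ran from 15943320 to 15945117 and had 3, 6, 6, 19 and 18 reads from 4.5 to 72 hpf. It was lowest at 4.5 hpf and highest in the last 2 libraries. The circRNA from 182367 to 183452 was not listed at 4.5 hpf and had 17, 12, 28 and 11 reads from 8 to 72 hpf, with its highest count at 48 hpf. That from 14251799 to 14283462 had 12, 5 and 5 reads up to 24 hpf, was not listed at 48 hpf and had 3 at 72 hpf.

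In the long part, the circRNA listed in all 5 libraries ran from 72076610 to 72176947, spanned 100337 bp and had 9, 2, 4, 5 and 2 reads. The circRNA from 75675126 to 75697345 had 10, 2 and 3 reads up to 24 hpf, was not listed at 48 hpf and had 5 at 72 hpf. Both had their highest count at 4.5 hpf. A further 10 circRNAs were listed in 3 libraries, 8 of them before 27 Mb and 2 in the long part.

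Several of the members with most reads were listed in 1 library, though not all: those that start at 182367 and 15943320, with 68 and 52 reads in all, were listed in 4 and 5. The circRNA from 379926 to 384171 had 394 reads at 72 hpf and was listed nowhere else. A circRNA of similar span, 284896 to 289307, had 4 reads at 48 hpf. In the long part, 71390324 to 71395239 had 78 reads at 8 hpf alone. A pair of circRNAs that share its start or its end were listed at 4.5 hpf with 3 and 9 reads, the latter again at 24 hpf with 2. Summed over these 3, the reads were 12, 78 and 2 at 4.5, 8 and 24 hpf, which per depth was 5.61-fold higher at 8 than at 4.5 hpf (3.04 to 11.3). The circRNA from 75651737 to 75732402 had 35 reads at 4.5 hpf alone.

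Between consecutive stages, few chromosome 4 circRNAs had enough reads to compare. A circRNA entered with at least 10 reads over both libraries and was called at a ratio of 2 per depth, with a circRNA that was not listed set at 3 reads. Where a ratio is given as at least a value, it was computed with those 3 reads and leaves out counting error. Between 4.5 and 8 hpf, 6 of 18 were higher and 11 lower, where 20.4% of the 545 compared over the whole series were higher and 50.3% lower. All 4 higher ones of the long part were listed at 8 hpf only. The ratio of 76321644 to 76322090 was at least 25.9-fold, followed by at least 22.4-fold for 71390324 to 71395239. The third, 76321667 to 76322123, was at least 8.35-fold higher. Lower were 75651737 to 75732402, at least 13.5-fold, 8722507 to 8728903 (19 reads, then not listed), at least 7.34-fold, and 76320878 to 76321069, at least 5.79-fold.

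Between 8 and 24 hpf, 1 of 9 was higher and 5 were lower, against 24.1% and 44.6% over the series. The lower ones included the same 3 positions of the long part, at least 25.4-fold, 22.0-fold and 8.18-fold in the order given above for 8 over 4.5 hpf. Those 3 were listed at 8 hpf only, so both steps rest on the same 8 hpf counts and are not separate observations. The higher one, 5415365 to 5445886, had 5, 13 and 5 reads at 8, 24 and 48 hpf. It was 3.07-fold higher at 24 hpf (1.03 to 11.0) and then 2.63-fold lower at 48 hpf (0.880 to 9.43), an interval that includes 1.

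Between 24 and 48 hpf, 4 of 6 were higher and 1 lower, against 43.8% and 22.2% over the series. The 2 of the long part lay in the dense stretch, where 76321667 to 76322188 was at least 10.9-fold higher. For its neighbour 76321646 to 76322184 the bound was 7.57-fold. The circRNA from 15943320 to 15945117 was 3.13-fold higher (1.20 to 9.57), and that from 182367 to 183452 was 2.31-fold higher (1.14 to 4.98). Between 48 and 72 hpf, 4 of 9 were higher and 3 lower, against 34.3% and 22.1%. The highest was 379926 to 384171, at least 158-fold. The long circRNA from 60868664 to 61197888 had a ratio of 2.14 (0.889 to 5.49). For 12314268 to 12314718 the ratio was 2.40 (0.835 to 7.81), and both intervals include 1. The pair of the dense stretch was at least 9.15-fold and 6.38-fold lower, and the circRNA that starts at 182367 was 2.12-fold lower (1.02 to 4.71). Neither of the pair was listed at 24 or 72 hpf. Their rise and fall rest on the same 48 hpf counts and are not separate observations.

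These bounds hold for exact positions only, and would not hold where 1 junction had been placed at different positions in different libraries. Without the dense stretch, the lower calls between 8 and 24 hpf numbered 2 in place of 5, and the higher calls between 24 and 48 hpf 2 in place of 4. Scaled to total junction reads in place of depth, the step from 8 to 24 hpf had 3 higher calls with 4 lower ones, that from 24 to 48 hpf had 2 with 1, and that from 48 to 72 hpf had 1 with 4. TMM scaling gave 3 higher and 4 lower at the last of these steps. Of the 35 calls in the 4 comparisons, 20 were bounds.

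Back-splice ends were shared about as often on chromosome 4 as elsewhere, apart from the dense stretch. Over all libraries, 28.4% of circRNAs before 27 Mb (22.2 to 35.1) shared a start or an end with another circRNA, as did 28.4% on the other chromosomes (27.5 to 29.4). In the long part the share was 36.4% (26.9 to 46.6), and 23.9% outside the dense stretch (14.3 to 35.9), where 20 of 32 shared one. Outside the stretch, the end at 28289666 was used by 3 circRNAs, 1 each at 4.5, 8 and 24 hpf, with 7 reads in all. Before 27 Mb, 3 circRNAs ended at 8645164, with 6, 2, 7 and 3 reads at 4.5, 24, 48 and 72 hpf.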

How the data were processed

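Back-splice junctions were counted in 5 libraries, 1 per stage. The deposited library tables give junction read counts per circRNA as whole numbers that the authors had not normalized. A deposited series table of 1829 circRNAs, 41 of them on chromosome 4, adds a score named SRPBM, which the authors scaled to library depth per the file headers. Its counts had 0 mismatches with the library tables. SRPBM was the count times 1 constant per library, and read as reads per 1e+09 these constants, divided by 150, gave the depths. Per the submitters' processing notes, the tools included BWA 0.7.5a-r405 and edgeR 3.12.1, with no role stated. The program that called the circRNAs and its genome build are not stated there.

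The software was Python 3.11.15 with scipy 1.17.1, pandas 2.3.3, numpy 2.4.6 and matplotlib 3.10.9. For TMM scaling, R 4.3.3 and edgeR 4.0.16 were used. The span is the end minus the start, introns included. Density used the highest listed end of a chromosome as its extent. Parts were compared by the log2 ratio within each library, tested over the 5 libraries by exact sign flips. The libraries are different stages, so p measures whether the ratio has 1 direction across them. Shares carry exact Clopper-Pearson intervals, counts exact Poisson intervals and ratios of reads the exact conditional interval. Intervals of median spans came from binomial ranks. The reads carry no molecular identifiers, so repeated reads of 1 molecule count separately and intervals of reads may be too narrow. Intervals of circRNA shares and of median spans treat circRNAs as independent. All these intervals cover counting error at most. With 1 library per stage, no p was computed between stages. Bounds set a circRNA that was not listed at 3 reads and do not allow for counting error.

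Named by rule were the 5 members with most reads, the longest and the shortest in each part, those in at least 4 libraries, and the 3 higher and 3 lower in each step between stages with the most extreme inner limit of their interval, where an unlisted circRNA was ranked as 1 read. Other positions, the 70 Mb border and the dense stretch were chosen after their values were seen. The members and parts were chosen with earlier results of these data known. In simulated data with 200 circRNAs of 9559 changed 8-fold, 99.4% of those with enough reads were called at 8 over 4.5 hpf, as were 23.6% of unchanged ones compared. The changed ones were drawn from circRNAs with many reads, so the 99.4% does not describe members with few reads or smaller changes.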

Additional observations from a re-analysis of the deposited data

How the results depend on the processing

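The lower density of the long part kept its direction under all 10 alternatives run, with a ratio of 0.180 to 0.285 to the earlier part and 0.170 to 0.264 to the other chromosomes; its reads per Mb and depth did so under all 11, at 0.178 to 0.414. Leaving out each library in turn gave 0.245 to 0.284, 0.236 to 0.264 and 0.226 to 0.414. Reads per circRNA turned with at least 5 reads (log2 ratio -0.074), without the gastrula library (-0.12; range over left-out libraries -0.12 to 0.67) and without the dense stretch (-0.017), an alternative chosen after the data were seen. The median span of the long part turned without the dense stretch against the earlier part (0.56) and against the other chromosomes (1.02), and against the latter with at least 5 reads (0.12). The cause was not tested.

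With at least 5 reads, chromosome 4 listed 27, 24, 5, 16 and 11 circRNAs from 4.5 to 72 hpf, and the share of the long part was 54.2% at 8 hpf and 20% at 24 hpf; weighted by reads it was 63.5% at 8 hpf and 13.4% at 72 hpf. Calls, higher then lower, depended on the minimum. With 20 reads there were 3 and 2 at 8 over 4.5 hpf, 0 and 3 at 24 over 8, no lower one at 48 over 24 (0), and 2 higher at 72 over 48. With no minimum there were 11 and 23, 3 and 9, 8 and 3, and 9 and 6. At 4-fold there were 0 higher at 24 over 8 hpf, 2 higher and 0 lower at 48 over 24, and 1 higher at 72 over 48. Scaled to total junction reads, higher calls were 3 at 24 over 8 hpf, 2 at 48 over 24 and 1 at 72 over 48, where that scaling removes shifts of -1.12, 0.71 and 0.53 on the log2 scale. TMM moved no count by over 1.5 times; it removes -0.54, -0.17, 0.28 and 0.16. With overlapping circRNAs merged, 3 were lower at 24 over 8 hpf. The circRNA with most reads of the long part outside the stretch was also left out after the data were seen. Without it, the summed reads per depth there moved from 0.30 to -0.76 (log2 ratio) at 8 over 4.5 hpf. At 24 over 8 hpf they moved from -1.56 to -0.50. That circRNA was listed at 8 hpf only, so leaving it out could only lower the 8 hpf value. Without the dense stretch, 3 were higher at 8 over 4.5 hpf, 2 lower at 24 over 8, 2 higher at 48 over 24 and 1 lower at 72 over 48.

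No test between stages was possible because each stage had 1 library, while parts of the chromosome were paired within each library. Chromosome lengths of a genome of the build of the files were not used here, so that alternative was not run. The counts of 2 to 3 reads behind most members limit any statement on a single circRNA.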
